A study of Mus musculus with 4 samples.

Results

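Cytosolic ribosomal proteins were read in 4 mouse cerebellar tumors, with 1 Affymetrix Mouse Genome 430 2.0 array per tumor. Members were the probe sets that the platform annotation gave exactly 1 gene symbol, where that symbol had the form of a large (Rpl) or small (Rps) subunit protein name. The rule found 98 of 29304 probe sets. They stand for 46 genes, 25 of the large and 21 of the small subunit, of 13320 genes with a probe set of their own. A probe set is a group of short oligonucleotides that together read 1 transcript. The tumors, called 1, 2, 4 and 5 after the numbers in their sample titles, carried the genotype Chd7-het on a mixed CD1xC57BL/6 background. They form 1 group, without a control genotype or normal tissue, so each tumor was compared with the other 3. The labels give neither the sex nor the age of the mice, nor the alleles or driver behind the tumors, and they do not say whether a number also marks a litter or a batch.

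The cytosolic ribosome is built from a small subunit, which binds the mRNA and decodes it, and a large subunit, which joins the amino acids. Each ribosomal protein is normally made in step with the others, and surplus copies that do not enter a ribosome are degraded. Their mRNAs commonly begin with a 5′ terminal oligopyrimidine (TOP) tract, a C followed by further C or T bases, through which mTOR and the RNA-binding protein LARP1 control their translation. Growing cells, among them the dividing progenitors of the cerebellum, depend on ribosome production.

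RefSeq promoter windows of the GRCm38.p6 assembly, from 250 bases before to 50 bases after the annotated start, were available for 41 of the 46 members (48 windows, since some genes have several starts). The windows lay on 15 chromosomes. A TOP-like start, a C at the annotated start followed by at least 4 pyrimidines, was found in 8 of 48 windows (16.7%), against 2.51% of all 32851 windows in the table and 2.34% of the 13732 windows of genes on the array. The 8 starts are shown because this tract is the element the family is known for. Each line runs from 15 bases before the start to the 15th base of the transcript, 5′ to 3′ on the gene's strand, and capitals mark the pyrimidine tract that begins at the start base.
Rpl14, chr9:120571502-120571531, plus strand: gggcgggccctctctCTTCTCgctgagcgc
Rpl35, chr2:39005117-39005146, minus strand: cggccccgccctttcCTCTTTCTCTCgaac
Rpl38, chr11:114668565-114668594, plus strand: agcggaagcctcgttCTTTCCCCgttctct
Rplp2, chr7:141447636-141447665, plus strand: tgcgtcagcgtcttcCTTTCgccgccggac
Rps6, chr4:86857353-86857382, minus strand: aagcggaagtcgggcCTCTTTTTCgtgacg
Rps10, chr17:27635230-27635259, minus strand: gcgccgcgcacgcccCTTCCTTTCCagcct
Rps18, chr17:33955651-33955680, minus strand: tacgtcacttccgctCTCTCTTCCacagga
Rps27, chr3:90213634-90213663, minus strand: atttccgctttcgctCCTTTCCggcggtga

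The tract ran from 5 bases in Rplp2 to 11 in Rpl35. The 4 paralogs among the members had no such tract at the annotated start. Nor did most member windows, among them those of the parents Rpl22 and Rpl39, so this is not particular to paralogs. The windows of the paralogs are shown with no capitals, and a further window of Rps27l, also without the tract, is left out.
Rpl7l1, chr17:46782642-46782671, minus strand: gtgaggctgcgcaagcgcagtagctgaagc
Rpl22l1, chr3:28805493-28805522, plus strand: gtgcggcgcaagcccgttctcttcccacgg
Rpl39l, chr16:10170213-10170242, plus strand: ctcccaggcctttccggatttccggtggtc
Rps27l, chr9:66946071-66946100, plus strand: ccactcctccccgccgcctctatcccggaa

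An annotated start can lie a few bases from the start used in a tissue. With the tract allowed to begin anywhere from 10 bases before to 10 bases after the annotated start, a setting added after seeing the data, 27 of 48 windows held one (56.2%), against 30.7% of all windows. The ETS core CCGGAAG, searched on both strands of the whole window, was present in 21 of 48 windows (43.8%), against 8.86% of all windows and 15.7% of those of array genes. In Rpl38 the match began at position -20 from the start, and in Rps10 at position -29. GGGCGG, an Sp-type GC box, was present in 54.2% of the members' windows, against 35.7% of all windows and 59.8% of those of array genes. TATAAA was present in 12.5%, against 13.6% and 7.88%. For these 2 motifs the members thus lay between the 2 backgrounds. AAGATGGCG, a YY1-type core, was present in 6.25%, against 1.40% and 2.59%. The YY1-type core can share its first 3 letters with the end of the ETS core, and GGGCGG can share 1 or 2 letters with it, depending on the strand. These matches are descriptions of the sequence, and the expression data do not read starts.

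Expression was then examined gene by gene. Values were log2 signals as deposited, and the brightest probe set stood for its gene. Of the 46 members, 43 had a mean signal of at least 5.87 and were among the 8498 genes tested, 23 of the large and 20 of the small subunit. The other 3 were Rpl39, Rpl39l and Rps27. Rpl39 (probe set 1423032_at) read 4.77, 4.81, 3.19 and 5.07 in tumors 1, 2, 4 and 5. Rps27 (1460699_at), a small subunit protein with a zinc finger, read 4.31, 5.14, 4.60 and 5.45. Rpl39l (1423327_at), a paralog of Rpl39 known from the testis, read 2.54, 1.63, 2.46 and 2.41. Most of these readings lay under 5.12, the common floor below which signals were not ordered. The single-symbol probe sets of Rps27 and Rpl39 do not speak for those transcripts as a whole, since 1 further probe set that lists Rps27 together with another symbol had a mean of 11.24, and 1 that lists Rpl39 with others had a mean of 11.92. In all, 105 further probe sets list a ribosomal protein symbol with other symbols, often pseudogenes, and are described below as a class. Rplp1, Rpl3 and Rpl5 belong to this class, so they have no value of their own here.

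The ribosomal protein genes were among the brightest on the array, and in nearly all of them tumors 4 and 5 read above tumors 1 and 2. Of the 43, 36 had a mean of at least 10, and the same number lay in the brightest 10% of the genes tested, which held 850 genes. The median signal of the 43 was 11.590, 11.486, 11.978 and 12.004 in tumors 1, 2, 4 and 5 (SD over the tumors 0.27, n = 4). On the linear scale the 43 genes took 3.49%, 3.28%, 4.17% and 4.35% of the summed signal of the genes tested. Signal depends on the oligonucleotides as well as on the transcript, so levels of different genes were not set against each other.

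**Figure D1:**
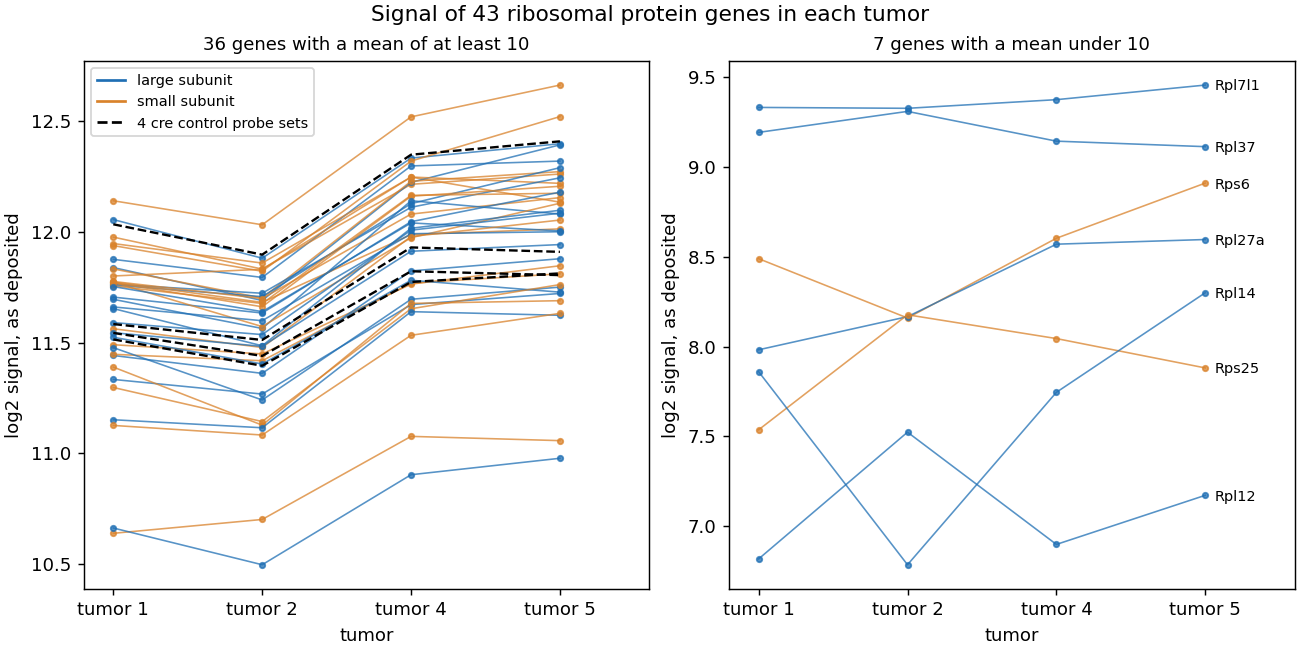
Log2 signal as deposited of the 43 ribosomal protein genes in each tumor, large subunit in blue and small subunit in orange; dashed black lines are 4 cre control probe sets, and lines only join the values of a gene, since the tumors have no order. The 36 genes with a mean of at least 10 (left) run together with the controls and read higher in tumors 4 and 5 than in tumors 1 and 2 on this scale, and the 7 dimmer genes (right) do not share 1 pattern.

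The stalk proteins, which recruit elongation factors to the large subunit, showed this split of the tumors. Rplp0, the base of the stalk, read 11.76, 11.71, 12.13 and 12.29 in tumors 1, 2, 4 and 5 (mean 11.97 ± 0.28, SD, n = 4). Rplp2 read 11.88, 11.79, 12.30 and 12.32 (12.07 ± 0.28). In both genes tumors 4 and 5 lay above tumors 1 and 2 without overlap. Rpl11, a large subunit protein that also binds and restrains the p53 ligase Mdm2 as part of the 5S ribonucleoprotein, read 11.52, 11.40, 11.78 and 11.73 (11.61 ± 0.18). Rpl38 read 11.84, 11.69, 12.22 and 12.39 (12.04 ± 0.33), one of the 5 largest spreads among the 43 genes. Rpl8, another large subunit protein, read 11.15, 11.12, 11.64 and 11.62 (11.38 ± 0.29). All of these genes were lowest in tumor 2, and tumors 4 and 5 held the top positions in each.

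Small subunit proteins showed the same split. Rpsa, a protein of the small subunit also known as a laminin receptor, read 11.77, 11.66, 12.16 and 12.21 (11.95 ± 0.27). Rps28 read 11.94, 11.82, 12.32 and 12.52 (12.15 ± 0.33), Rps7 11.77, 11.68, 11.99 and 12.01 (11.86 ± 0.16) and Rps20 11.95, 11.86, 12.25 and 12.13 (12.05 ± 0.18). In none of these did the higher pair of tumors overlap the lower pair. Rps6, the subunit's substrate of S6 kinase, was read by a dimmer single-symbol probe set, 1416142_at, at 8.49, 8.16, 8.60 and 8.91 (8.54 ± 0.31). There tumors 1 and 4 lay close together, tumor 2 was lowest and tumor 5 highest. The 4 bright probe sets that list Rps6 with other symbols had means from 11.62 to 11.93.

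Paralogs and their parents could be compared in 2 pairs. Rpl22, a large subunit protein that binds RNA and can be lost without loss of the ribosome, read 11.70, 11.56, 12.14 and 12.08 (11.87 ± 0.28). Its paralog Rpl22l1, which can take its place, read 10.66, 10.50, 10.90 and 10.98 (10.76 ± 0.22). Tumor 2 was lowest and tumors 4 and 5 read higher in both, as in most bright members, but Rpl22 was highest in tumor 4 and Rpl22l1 in tumor 5. After quantile normalization Rpl22 read 11.88, 11.82, 11.95 and 11.82, and Rpl22l1 10.74, 10.55, 10.81 and 10.89. Rpl7 read 11.65, 11.49, 12.02 and 12.10 (11.81 ± 0.29). Rpl7l1, whose protein resembles Rpl7 but acts in ribosome assembly, read 9.33, 9.33, 9.38 and 9.46 (9.37 ± 0.06), the smallest spread of the 43 genes. Its other probe sets had a mean of 8.71 for 1426386_at and values of 6.34, 5.31, 6.54 and 5.58 for 1439780_at. Rps27l, a paralog of Rps27 and a p53 target, read 10.64, 10.70, 11.08 and 11.06 (10.87 ± 0.23), again with tumors 4 and 5 above the others.

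To ask how far the tumors differed, each was set against the mean of the other 3. As deposited, the median difference over the 43 genes was -0.23 in tumor 1, -0.35 in tumor 2, 0.24 in tumor 4 and 0.31 in tumor 5 on the log2 scale. The 43 genes read higher than the mean of the other 3 in 2, 3, 41 and 41 cases, where 43.7%, 47.2%, 50.8% and 56.9% of all genes tested did. They read lower in 41, 40, 2 and 2 cases, where 56.3%, 52.8%, 49.2% and 43.1% of all genes did. After quantile normalization, which gives every array the same distribution, the counts of members reading higher were 15, 17, 27 and 28 of 43. Of all 8496 genes tested after it, 3653, 4040, 4548 and 4752 read higher. With each array shifted by its 4 cre control probe sets, 14, 16, 23 and 34 of the 43 read higher. With the same shift 6146, 7543, 843 and 1304 of all 8498 genes did. Among the 36 genes with a mean of at least 10, the deposited values were lower in tumors 1 and 2 and higher in tumors 4 and 5 without exception. Tumors 4 and 5 both lay above tumors 1 and 2 in 39 of the 43 genes (90.7%), an order chosen after the values were seen, against 28.1% of all genes tested. The full order, from tumor 2 over 1 and 4 up to 5, was seen in 31 of the 43, against 8.98% of all genes. Tumor 2 was lowest of the 4 in 37 genes, where 29.1% of all genes had it lowest, and tumor 5 was highest in 33, where 30.9% had it highest. Tumor 1 was lowest in 5 genes (31.3% of all genes), tumor 2 was highest in 3 (26.4%), and tumor 4 was highest in 7 (19.1%) and lowest in 0 (17.3%). Tumor 1 was highest in 0 (23.4%) and tumor 5 lowest in 1 (22.1%).

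No single ribosomal protein gene passed the test in any tumor. A gene passed at a limma adjusted p under 0.05 (Benjamini-Hochberg over 8498 genes) with a difference of at least 2-fold. The count was 0 of 43 in tumor 1, where 1.29% of all genes passed (110 genes), and 0 of 43 in tumors 2, 4 and 5, where 0% of all genes passed. The members' differences ran from -0.50 to 0.25 in tumor 1 and from -1.18 to 0.56 in tumor 2. They ran from -0.27 to 0.36 in tumor 4 and from -0.10 to 0.84 in tumor 5. An exact permutation test of 1 tumor against 3 cannot reach a p below 0.25, so the shared shift is given as a description, without a p. Its size, at most 0.35 on the log2 scale in median, is also under the 2-fold bound.

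The members with the largest differences in tumor 1 were Rps25, at -0.50 (SE 0.18, limma adjusted p = 0.319), Rpl27a at -0.46 (adjusted p = 0.453) and Rpl12 at -0.38 (adjusted p = 0.679). In tumor 2 they were Rpl14, Rpl12 and Rps6, described below, with a limma adjusted p of 0.795 each. In tumor 4 they were Rpl22 at 0.36, Rpl8 at 0.34 and Rpl27a at 0.32, all with a limma adjusted p of 1.00. In tumor 5, Rpl14 was followed by Rps28 at 0.49 and Rps6 at 0.49, with a limma adjusted p of 0.957 each. Rpl27a (1437729_at) read 7.98, 8.17, 8.57 and 8.60 (8.33 ± 0.30), so tumors 4 and 5 were higher there too.

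The large and the small subunit read alike. The median difference of the 23 large subunit genes was -0.23, -0.35, 0.23 and 0.31 in tumors 1, 2, 4 and 5, and that of the 20 small subunit genes was -0.23, -0.35, 0.25 and 0.31. The sign of the gap between the subunits changed with the processing in every tumor, so no order of the subunits is given. All 20 small subunit genes read lower in tumor 1 and higher in tumor 4 as deposited, as did 21 of the 23 large subunit genes in each case.

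Shifts of similar size were also present in some of the probe sets that read no mouse ribosomal protein. The 4 cre control probe sets, which read transcripts of bacteriophage P1 added to every sample during array preparation, differed by -0.17, -0.31, 0.23 and 0.25 in tumors 1, 2, 4 and 5. One of them, r2-P1-cre-3, read 12.03, 11.90, 12.35 and 12.41. On average these added transcripts thus read lower in tumors 1 and 2 and higher in tumors 4 and 5, with sizes close to the members' medians. The control probe sets of Gapdh differed by -0.25, -0.33, 0.31 and 0.27, and those of actin by -0.29, -0.38, 0.27 and 0.40. The 3 probe sets of 18S rRNA, the RNA of the small subunit, differed by -0.048, -0.47, 0.25 and 0.27. The 14 bio controls, which are dimmer, differed by -0.086, -0.23, 0.26 and 0.059. Dimmer controls for bacterial transcripts, 6 probe sets each, did not share 1 pattern. Those of dap differed by -0.25, 0.037, 0.36 and -0.15, those of lys by -0.058, -0.64, 0.60 and 0.10, those of phe by -0.078, -0.62, 0.68 and 0.022, and those of thr by 0.60, -1.03, 0.087 and 0.34, so that thr was highest in tumor 1. Dimmer in median than the members, the other 814 genes of the brightest 10% had median differences of -0.11, -0.12, 0.14 and 0.10 as deposited. These went in the same direction as those of the members but were smaller. With the cre shift described below they were 0.054, 0.19, -0.091 and -0.15. Over all genes tested the medians were -0.036, -0.017, 0.0037 and 0.038.

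**Figure D2:**
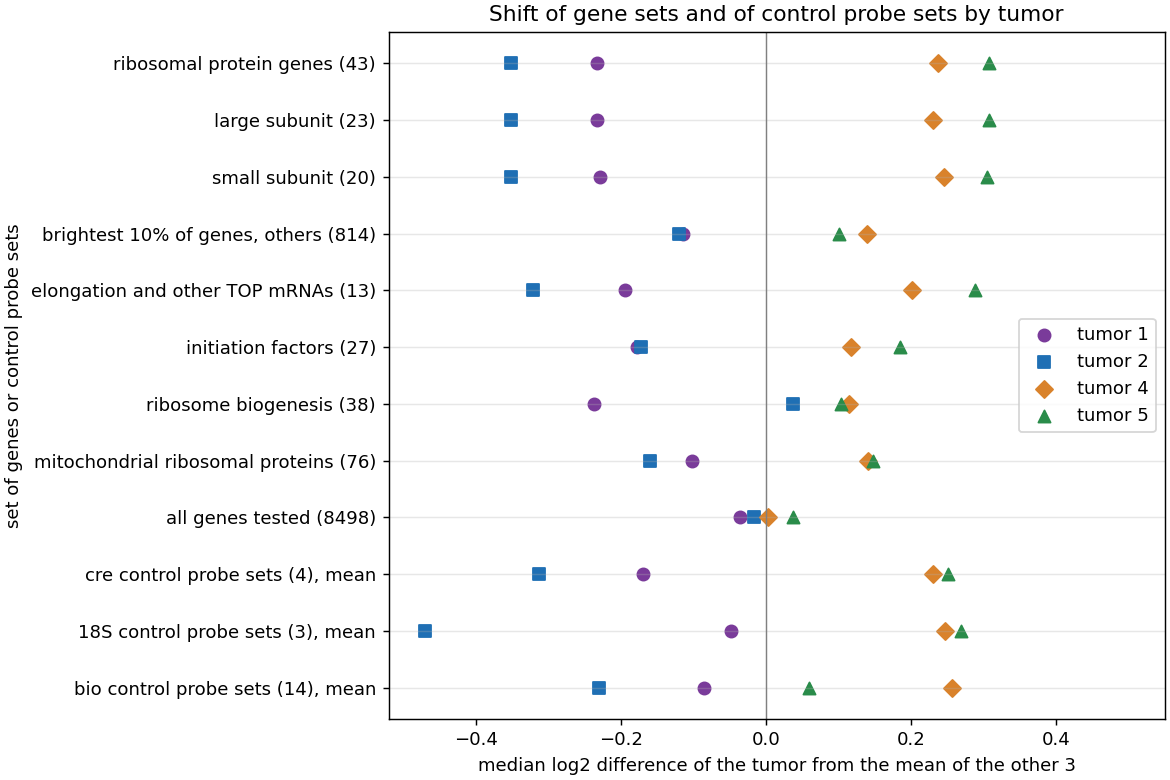
Median log2 difference, as deposited, of each tumor from the mean of the other 3, for ribosomal protein genes, other gene sets and control probe sets (means for the controls; numbers of genes or probe sets in parentheses). The ribosomal protein genes lie at -0.23, -0.35, 0.24 and 0.31 in tumors 1, 2, 4 and 5, next to the added cre controls at -0.17, -0.31, 0.23 and 0.25, and all genes tested lie near 0.

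The arrays also differed in the spread of their signals. The SD of log2 signal over all probe sets was 2.41, 2.41, 2.50 and 2.53 on arrays 1, 2, 4 and 5, and the 99th percentile was 11.23, 11.16, 11.47 and 11.48. Ratios of 3′ to 5′ control signal, which climb with RNA degradation, ranged from 0.686 to 0.757 for Gapdh and from 1.11 to 1.17 for actin. Between 59.1% and 61.3% of probe sets lay above the floor. When arrays were given 1 distribution by quantile normalization, the members' medians became -0.017, -0.027, 0.024 and 0.034. Tumors 4 and 5 then led in 19 of 43 genes (44.2%), against 28.7% of all genes. The median SD of a member over the tumors was 0.26 as deposited and 0.060 after quantile normalization, where that of all genes was 0.17 under each scaling. Quantile normalization sets the brightest probe sets of all arrays to the same values, so by construction it also removes a change that most of the brightest genes share. Shifting each array by its cre controls, an alternative chosen after seeing the data, left the members at -0.064, -0.038, 0.0076 and 0.057 and moved the median of all genes to 0.13, 0.30, -0.23 and -0.21. Such a shift moves all genes of an array alike, so it leaves the distance between the members and all genes as it was. A shift of the ribosomal protein mRNAs and a difference between the arrays in how bright signals were read cannot be told apart for these genes.

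**Figure D3:**
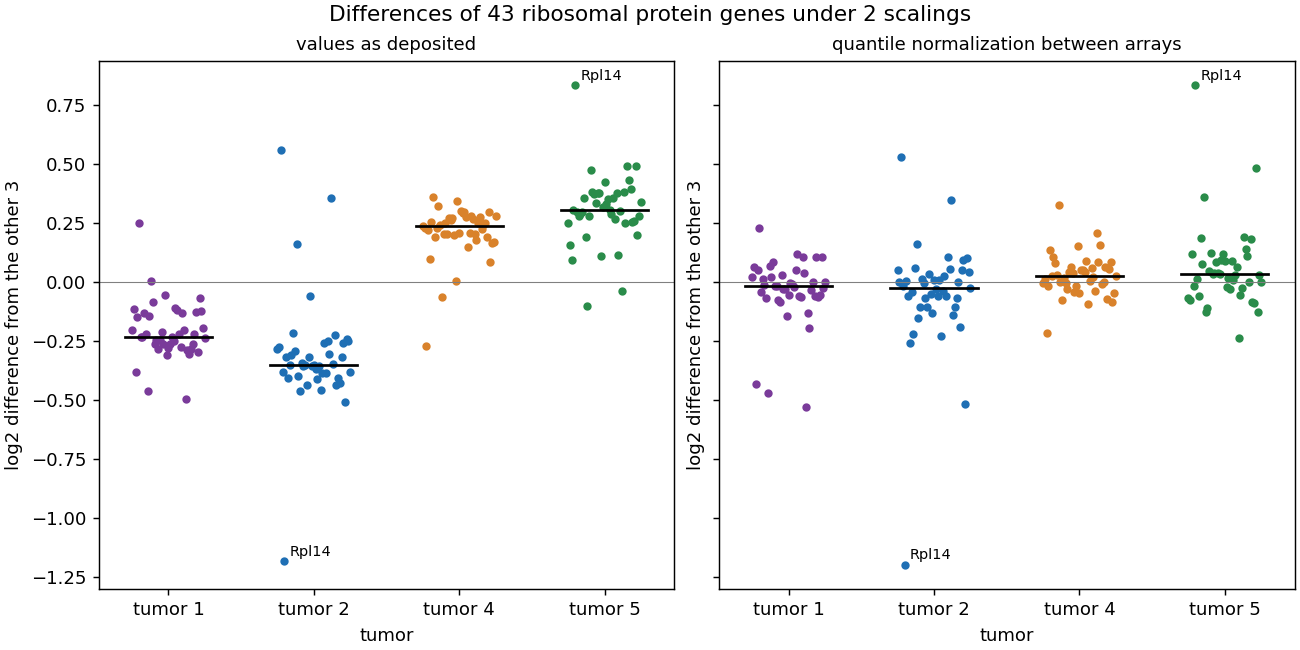
Log2 difference of each tumor from the other 3 for the 43 ribosomal protein genes (points; black bars are medians), as deposited and after quantile normalization. The medians go from -0.23, -0.35, 0.24 and 0.31 to -0.017, -0.027, 0.024 and 0.034, while Rpl14 stays at the bottom in tumor 2 and at the top in tumor 5.

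Mitochondrial ribosomal proteins, which serve the separate ribosome of that organelle and are far dimmer on the array, behaved otherwise under this change of scale. Their 76 genes had medians of -0.10, -0.16, 0.14 and 0.15 as deposited and of -0.10, -0.18, 0.15 and 0.14 after quantile normalization. They read higher than the other 3 tumors in 18, 8, 67 and 66 cases as deposited, and none passed the test. With the cre shift their medians were 0.067, 0.15, -0.090 and -0.10, the opposite signs, on a scale where all genes had moved to 0.13, 0.30, -0.23 and -0.21.

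Within the ribosomal protein probe sets, the split of the tumors was seen mainly in bright ones. Tumors 4 and 5 led in 73 of the 98 member probe sets, where 19.8% of all single-gene probe sets had them in the lead. Of the 70 member probe sets with a mean of at least 10, tumors 4 and 5 led in 68 (97.1%). They led in 61.9% of the other 998 single-gene probe sets past that cut. Sets of equal signal were not compared. The 36 member genes past the cut had median signals of 11.70, 11.59, 12.01 and 12.08 in tumors 1, 2, 4 and 5. Those of the other 814 genes of the brightest 10% were 10.34, 10.35, 10.48 and 10.47. Of the 18 member probe sets between the filter and a mean of 10, tumors 4 and 5 led in 5 (27.8%), where 22.8% of all single-gene probe sets in that range did. Tumor 2 was the highest of the 4 in 9 of these 18, where 29.7% of all single-gene probe sets in that range had it highest, and in 0 of the 70 bright ones. The remaining 10 member probe sets lay under the filter, 8 of them above the floor in no tumor, and were not ordered. Across the 88 probe sets past the filter, Pearson's r between mean signal and difference was -0.018, -0.59, 0.49 and 0.59 in tumors 1, 2, 4 and 5, and Spearman's rho was 0.058, -0.35, 0.31 and 0.35. Across the 43 genes, each with its brightest probe set, r was -0.072, -0.34, 0.65 and 0.13, and rho was -0.10, -0.28, 0.29 and 0.23. By each coefficient the relation was weaker there in tumors 2 and 5. In tumor 4 r was larger and rho was not. These coefficients are descriptions across probe sets that share the arrays and, in part, the gene. Among the 105 probe sets that list a ribosomal protein symbol with others, tumors 4 and 5 led in 79 of 80 bright ones and in 1 of 15 between the filter and a mean of 10. Tumor 2 was highest in 4 of those 15. Over all genes tested, the brightest decile had medians of -0.12, -0.13, 0.15 and 0.11, while the median farthest from 0 in the other 9 deciles was -0.070.

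**Figure D4:**
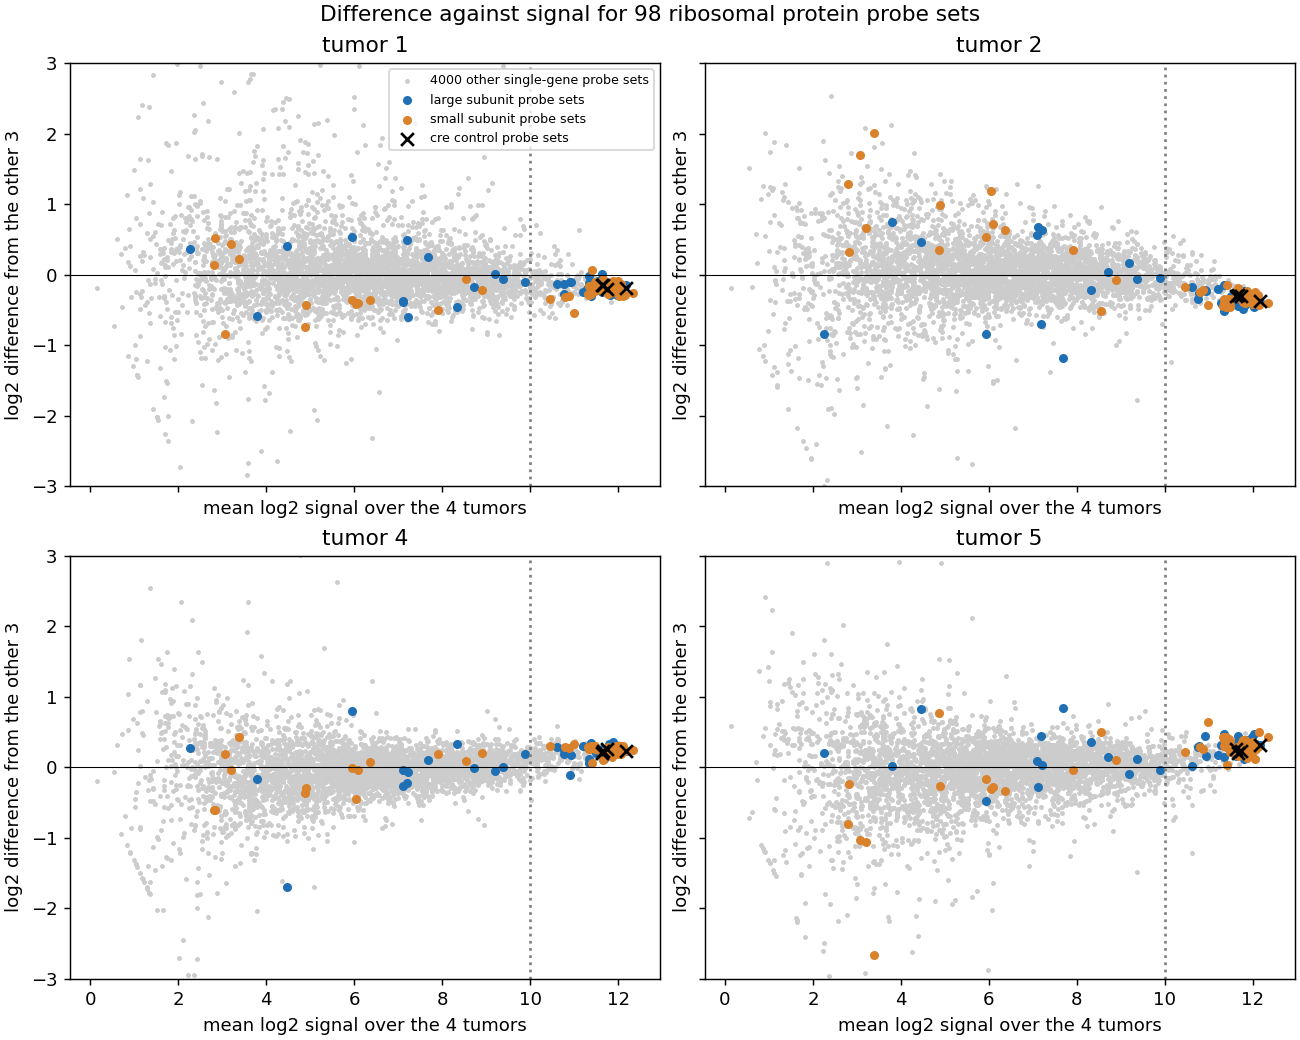
Log2 difference from the other 3 tumors, as deposited, against mean log2 signal for 98 ribosomal protein probe sets (blue and orange), 4 cre controls (crosses) and 4000 other single-gene probe sets (grey; differences beyond 3 are off the axis), with a dotted line at a mean of 10. Of the 70 ribosomal protein probe sets right of the line, 68 and 70 sit below 0 in tumors 1 and 2, and 69 and 70 above 0 in tumors 4 and 5.

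Some genes gave different readings with different probe sets. In 7 genes the array carries both a probe set with a mean of at least 10 and one past the filter but under 10. Of the 9 dim probe sets in these genes, 8 had a tumor 2 difference above that of every bright probe set of the same gene. A positive tumor 2 difference was seen in 6 of the 9 and in 0 of the 15 bright probe sets. Among all single-gene probe sets, 6436 of 12457 from the filter to a mean of 10 had a positive one. At or above that mean, 259 of 1068 did, so dim and bright probe sets also differed over all genes. Rps24 shows the contrast: 1455195_at read 5.74, 6.94, 5.71 and 5.82, with a tumor 2 difference of 1.18, while its 4 bright probe sets differed by -0.30 to -0.20 there. In Rps20, the dim 1450417_a_at and 1421935_at differed by 0.63 and 0.53 in tumor 2, against -0.28 to -0.25 for the bright ones. In Rps9, 1426958_at differed by 0.72, against -0.25 to -0.15. The exception was Rpl37a, whose dim 1416218_x_at differed by -0.70, against -0.40 to -0.35 for its bright probe sets. In 3 genes, Rpl22, Rpl37a and Rps3, the dim probe set also read lower in tumor 2 than in the others on average. In the other 4, Rpl41, Rps9, Rps20 and Rps24, bright and dim probe sets differed in sign in tumor 2. What sequence a dim probe set reads was not tested. The genes and probe sets named in this paragraph were chosen after their values were seen.

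**Figure D5:**
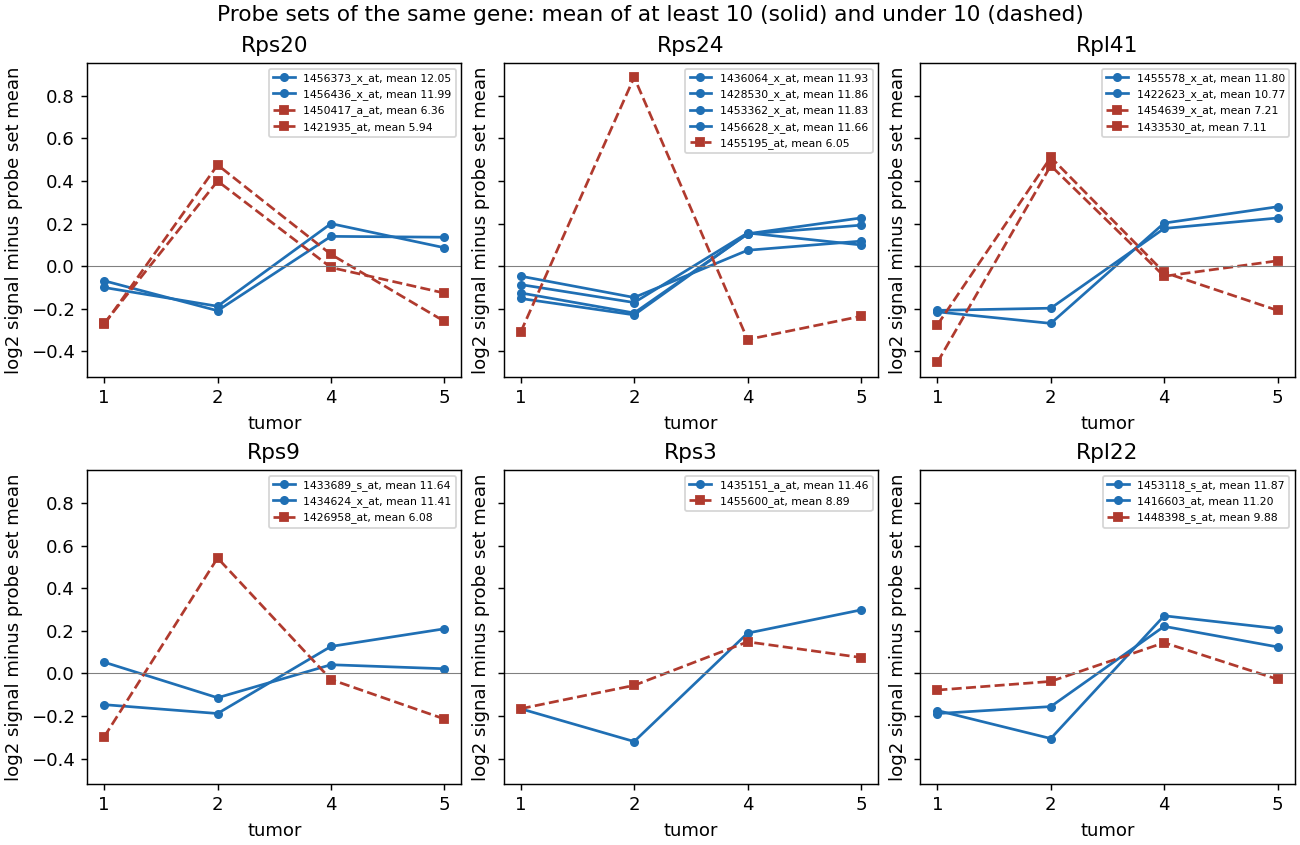
Log2 signal minus the mean of the probe set over the 4 tumors, as deposited, for 6 genes with a bright (mean of at least 10, solid blue) and a dim (dashed red) probe set. The dim probe sets of Rps20, Rps24, Rpl41 and Rps9 peak in tumor 2, where all bright ones lie below 0, and those of Rps3 and Rpl22 stay near 0 in tumor 2.

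Members that left the shared level were then sought, as genes whose difference in a tumor lay 1.5-fold or more from the members' median in that tumor. Rpl14 had been named for this search with earlier results of these data known. As deposited there were 3 such members, all in tumor 2 and all with a mean under 10: Rpl14 below the shared level and Rpl12 and Rps25 above it. Rpl14 (1422128_at), a large subunit protein whose TOP-like start is shown above, read 7.86, 6.79, 7.75 and 8.30 in tumors 1, 2, 4 and 5 (7.67 ± 0.64, the largest spread of the 43 genes). Tumor 2 lay apart below the other tumors and tumor 5 was highest. The difference in tumor 2 was -1.18 (SE 0.25, limma adjusted p = 0.795), or 1.78-fold below the shared level. In tumor 5 it was 0.84 (SE 0.40, limma adjusted p = 0.957). After quantile normalization these were -1.20 and 0.84, and Rpl14 was the 1 member still away from the shared level. With tumor 1 left out, Rpl14 differed by -1.24 in tumor 2 and by 1.03 in tumor 5. Each was then set against only 2 tumors, whose own Rpl14 readings lay apart. They were 7.75 and 8.30 for tumor 2, and 6.79 and 7.75 for tumor 5. The limma fit draws the spread of a gene towards that of genes of similar signal, so the 2 tumors alone did not set it. The 5 probe sets that list Rpl14 with a pseudogene symbol, with means from 10.94 to 11.69, differed by -0.39 to -0.19 in tumor 2 and by 0.21 to 0.27 in tumor 5, so they kept to the shared level.

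Rpl12 (1435655_at), a protein at the base of the stalk, read 6.82, 7.52, 6.90 and 7.17 (7.10 ± 0.32), highest in tumor 2. Its difference there was 0.56 (SE 0.21, limma adjusted p = 0.795), 1.88-fold above the shared level. Rps25 (1430978_at), a small subunit protein used by some viral internal ribosome entry sites, read 7.54, 8.18, 8.04 and 7.88 (7.91 ± 0.28). It lay 1.63-fold above the shared level in tumor 2, and tumor 1 was the lowest. Bright probe sets that list these symbols with others went the opposite way in tumor 2, at -0.31 to -0.22 for the 2 with Rpl12 and -0.34 for the 1 with Rps25. Both departures were thus read from dim probe sets alone. After quantile normalization Rpl12 still differed by 0.53 in tumor 2 and lay 1.47-fold above the shared level, just inside the bound, and Rps25 differed by 0.35, or 0.38 above the shared level on the log2 scale. Rps6 stayed within the bound, with differences of -0.51 in tumor 2 (SE 0.20, limma adjusted p = 0.795) and 0.49 in tumor 5. Just inside the bound as deposited were Rpl14 in tumor 5, 0.53 above the shared level, Rpl37 in tumor 2, 0.51 above it, and Rpl12 in tumor 4, at -0.51 from it. After quantile normalization Rpl14 in tumor 5 lay 0.80 above the shared level (1.74-fold), past the bound. Rpl37 in tumor 2 then lay at 0.19 and Rpl12 in tumor 4 at -0.24. Rpl37 (1438291_x_at) read 9.19, 9.31, 9.14 and 9.11 (9.19 ± 0.09), nearly level over the tumors.

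Genes that act with the ribosome were read from lists chosen with earlier results of these data known, with the share of all genes passing given above. The 13 elongation factors and other known TOP mRNAs had medians of -0.19, -0.32, 0.20 and 0.29, like the ribosomal proteins. None passed. Eef1a1, which brings aminoacyl-tRNA to the ribosome, read 11.77, 11.65, 12.27 and 12.35. Eef2, the translocase, read 11.26, 10.94, 11.53 and 11.70, and Tpt1, a growth-related TOP mRNA, 11.50, 11.43, 11.99 and 12.20. After quantile normalization the list's medians were -0.041, -0.12, 0.022 and 0.10. The 27 initiation factors had medians of -0.18, -0.17, 0.12 and 0.19, with 3, 5, 20 and 22 genes higher and none passing. After quantile normalization they were at -0.027, -0.073, 0.027 and 0.052. With the cre shift, the elongation list read -0.025, -0.0086, -0.028 and 0.037 and the initiation list -0.0091, 0.14, -0.11 and -0.065, on the scale where all genes had moved to 0.13, 0.30, -0.23 and -0.21.

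Ribosome biogenesis genes, which make and process rRNA in the nucleolus, had another order. Of 40 listed, 38 were tested, with medians of -0.24, 0.037, 0.12 and 0.10. In tumor 1, 1 of 38 read higher than the other 3, and in tumor 2 23 did, whereas 3 of 43 ribosomal protein genes did there as deposited. After quantile normalization the counts in tumor 2 were nearer, at 23 of 38 and 17 of 43. None of the biogenesis genes passed. Polr1b, a subunit of RNA polymerase I, read 7.08, 7.78, 7.73 and 7.62, with tumor 1 lowest by a wide margin (difference -0.63, limma adjusted p = 0.171). Nhp2, a protein of the snoRNPs that guide rRNA modification, read 9.65, 9.85, 10.38 and 10.43, with tumors 4 and 5 higher. These medians were -0.24, 0.050, 0.081 and 0.10 after quantile normalization, so the low median in tumor 1 did not hang on that choice, while with the cre shift they were -0.068, 0.35, -0.12 and -0.15.

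The 11 genes tested of mTOR, LARP1 and the S6 kinases, which control the translation of TOP mRNAs, had medians of 0.013, 0.030, -0.040 and -0.050, near those of all genes, and none passed. Of the 7 genes tested of p53 and the 5S ribonucleoprotein checkpoint, 1 passed. Cdkn1a, the p53 target that encodes the cell cycle inhibitor p21, read 6.44, 7.42, 8.04 and 8.07, and was lower in tumor 1 by the test (difference -1.40, limma adjusted p = 0.0494). Its tumor 2 value lay between those of tumor 1 and of tumors 4 and 5. The list's medians were -0.22, -0.099, 0.25 and 0.35 as deposited, and -0.25, -0.11, 0.27 and 0.35 after quantile normalization. With the cre shift they were -0.054, 0.21, 0.016 and 0.10, on the scale where all genes had moved to 0.13, 0.30, -0.23 and -0.21. Aen, a p53-induced nuclease, read 6.62, 6.96, 7.83 and 7.79, and Phlda3, another p53 target, 5.71, 5.36, 6.65 and 6.78, with tumors 4 and 5 above tumors 1 and 2 in both.

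Markers of other cell types also differed between the tumors. Granule progenitor markers, listed here for the tumor cells, were all tested (11 of 11). Whether they mark the tumor cells in these samples was not tested. Their medians were -0.36, -0.00017, 0.14 and 0.16 in tumors 1, 2, 4 and 5, with summed linear signals of 14829, 16145, 17937 and 18163. In tumor 1, 3 of the 11 read higher, and 1 passed as higher, Pax6. Proliferation markers had medians of -0.45, 0.012, 0.21 and 0.23, with 0 of 9 higher in tumor 1 and 9 of 9 in tumor 4, and none passed. Of 9 Purkinje and inhibitory neuron markers, 5 were tested, Calb1, Gad1, Car8, Pcp4 and Pvalb, and all 5 passed as higher in tumor 1, with summed signals of 3310, 318, 496 and 286. Without tumor 1, the mean of 3 of the 5 lies under the filter, so these entered the test through the tumor where they are high and had to come out higher there. Among mature neuron markers 4 of 6 passed there (Snap25, Chn2, Syt1 and Syp), 2 of which entered in that way, with sums of 5725, 2767, 3009 and 2942. Of the 7 oligodendrocyte markers tested, 4 read higher and 3 lower in tumor 1. As higher, 3 passed (Mbp, Ugt8a and Cldn11), 1 of which entered in that way. The sums of the 7 were 6099, 2441, 3359 and 2562. Astrocyte markers read higher in tumor 1 in 8 of 10 and lower in 2, and 2 passed as higher (Gdf10 and Gjb6), again 1 of them in that way. Of 13 microglia markers 1, Ptprc, passed as lower there, and tumor 4 had the highest sum (7468, against 4359 to 5559 in the others). In bulk tissue, fewer cells of a type and less RNA per cell cannot be told apart, and the part of cell composition in the ribosomal protein values was not tested.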

How the data were processed

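Total RNA of 4 tumors was measured on 1 array each, with the 4 numbers of the sample titles used as names. The deposited values are log2 signals, for which the submitters' processing notes name MAS5. MAS5 summarizes each array on its own and scales it to a common level, which leaves differences in spread between arrays. Neither its version nor its scaling target is stated in these sources. Precision is limited by the number of arrays. Back on the linear scale, 100% of the values lay within 0.0001 of a multiple of 0.1.

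Signals were raised to a floor, the median of the arrays' 40th percentiles (5.12 on the log2 scale, 34.9 linear). Probe sets whose mean reached the median of the means (5.87, or 58.5 linear) were kept, and the brightest probe set with a single symbol stood for its gene. Each tumor was compared with the other 3 in R 4.3.3 using limma 3.58.1 (lmFit, eBayes with an intensity trend) and Benjamini-Hochberg adjustment over 8498 genes; a pass needed an adjusted p under 0.05 and 2-fold. The lone tumor is assumed to vary like the others, the 4 comparisons share tumors, and p-values measure only the spread between these arrays. The fit was tested on simulated data.

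Genes named with values were the 3 members with the largest difference in each tumor, the 5 with the largest and the 5 with the smallest SD, the paralogs and their parents, stalk genes, Rpsa, Rps6, Rpl5, Rpl11 and Rpl14, and from other lists genes that passed and at most 3 with the largest difference. Rplp1 and Rpl5 have no value of their own, markers that passed are given by symbol, and the genes compared between bright and dim probe sets were added after their values were seen. The members and lists were chosen with earlier results of these data known. Probe sets with several symbols name no gene. Promoter sequences are RefSeq's (GRCm38.p6). Alternatives covered the floor, filter, scaling, probe set choice, trend, and leaving out each tumor.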

Additional observations from a re-analysis of the deposited data

How the results depend on the processing

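No paired analysis was possible because the 4 tumors form a single group. The number of ribosomal protein genes passing stayed at 0 in every tumor under every alternative run that kept all 4 tumors. With each tumor left out in turn the counts ranged from 0 to 0 in tumors 1 and 4 and from 0 to 1 in tumors 2 and 5; the 1 gene is Rpl14 without replicate 1, at -1.24 in tumor 2 and 1.03 in tumor 5. Over the same omissions the median differences ranged from -0.40 to -0.13 in tumor 1, from -0.48 to -0.26 in tumor 2, from 0.14 to 0.39 in tumor 4 and from 0.23 to 0.45 in tumor 5. Quantile normalization moved the median to -0.027 in tumor 2 and to 0.034 in tumor 5, and the cre shift, chosen after seeing the data, moved it to -0.038 in tumor 2. No median changed sign.

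The gap between the large and small subunit medians changed sign often and was never large. In tumor 1 it was 0.0021 with no mean filter, 0.0019 with the filter at the 75th percentile, 0.0093 after quantile normalization, 0.037 with every probe set, 0.035 with probe sets averaged and 0.0039 without _x_at and _s_at probe sets. In tumor 2 it was -0.016 after quantile normalization, -0.024 with every probe set, -0.012 without _x_at and _s_at probe sets and -0.0011 for members with a mean of at least 10. It was 0.0045 in tumor 4 without _x_at and _s_at probe sets and -0.011 in tumor 5 with no mean filter. Leaving out a tumor gave gaps from -0.0018 to 0.028 in tumor 1, -0.0066 to 0.017 in tumor 2, -0.036 to 0.020 in tumor 4 and -0.0025 to 0.0070 in tumor 5. The cause was not tested.

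The 3 members away from the shared level became 1 after quantile normalization, 11 with every probe set, 7 without _x_at and _s_at probe sets, and 0 among members with a mean of at least 10, where dim members are left out by construction. All settings for this count were added after seeing the data. Of all genes, 110 passed in tumor 1, but 57 with the floor at the 50th percentile, 29 with the filter at the 75th, and 208, 177 and 204 without tumors 2, 4 and 5. Without tumor 1, 29, 7 and 47 genes passed in tumors 2, 4 and 5. With no mean filter 1, 5 and 6 did, and with the cre shift 25 did in tumor 5.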
